A study of Mus musculus with 16 samples.

Results

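CD11b, CD11c and F4/80 (F4_80 in the tag names) are 3 surface proteins of mature myeloid cells, counted here with DNA-tagged antibodies in the same cells in which DNA methylation was read. They are 3 of the 14 tags counted in the library of mature immune cells from bone marrow and spleen, and 3 of 155 tag names in the whole series. They were taken in cells with 100 or more tag UMIs (unique molecular identifiers, each standing for 1 tag molecule), which were 5359 of 7385 cells of that library and of 95930 cells in the series. A second library, mature myeloid cells from bone marrow and peripheral blood, was to be set beside it. Its 127 tag names hold none of the 3 antibodies, and its tag Hu.CD11c had 2 UMIs in the whole file and 0 in its cells. Agreement between both libraries could therefore not be measured, and the tag values come from 1 library.

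The study reads mouse blood and immune cells with scTAM-seq, which digests DNA with a methylation-sensitive enzyme, so that an amplicon over a methylated CpG gives reads and an unmethylated one does not. Its panel holds 663 amplicons. Both mature libraries carry the name LARRY, a lentiviral library of expressed barcodes used to mark clones. Their titles give mature immune cells from bone marrow and spleen, and mature myeloid cells from bone marrow and peripheral blood; strain, age, sex and the number of animals are not given in the labels. Cells from marrow and spleen were not separated in the table, so the tissues cannot be told apart. Each mature group is 1 library and has no replicate, so no test was made, and every correlation over cells or amplicons is a description of these cells. Intervals on shares of cells are exact 95% binomial intervals and cover counting error only.

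CD11b is the alpha subunit of the integrin Mac-1 and CD11c that of a sister integrin, and both pair with the beta 2 chain CD18. CD11b is carried by neutrophils and monocytes and by part of the macrophages and NK cells. CD11c is best known from dendritic cells, but some monocytes, macrophages and lymphocytes carry it too. F4/80 is an adhesion G protein-coupled receptor used as a marker of mouse macrophages, and eosinophils also display it. On the RefSeq assembly GRCm38.p6, Itgam, the gene of CD11b, lies on chromosome 7 from 128062640 to 128118491. Itgax, the gene of CD11c, starts on the same chromosome at 128129526 and ends at 128150657, so 11034 bases separate the pair. Adgre1, the gene of F4/80, lies on chromosome 17 from 57358581 to 57483529. Amplicons carry panel identifiers only, with neither a position nor a gene beside them, so none of the amplicons below can be placed in or near these genes.

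CD11b was the most abundant of the 3 tags, then CD11c, then F4/80, and all 3 were found on nearly every cell. The median cell had 19 UMIs of CD11b, or 10.3% of its tag UMIs. It had 14 UMIs of CD11c (7.41%) and 9 of F4/80 (4.73%). By median share CD11b ranked 2 of the 14 tags, behind Ly-6C at 17.4%, while CD11c ranked 4 and F4/80 ranked 10. The middle 80% of cells held 5.88 to 15% for CD11b, 4.14 to 10.6% for CD11c and 2.33 to 7.27% for F4/80, so the ranges of neighbours in that order overlapped. A share compares antibodies, which differ in binding and tag yield, and is not a number of protein molecules.

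The levels of all 3 tags in cells lay close to those in barcodes that are not cells. In 74618 barcodes outside the cell table with 100 or more tag UMIs, the median share was 9.50% for CD11b, 8.02% for CD11c and 5.03% for F4/80. The cell median was thus 1.08 times the outside median for CD11b, 0.925 times for CD11c and 0.941 times for F4/80. The median total was 157 UMIs in those barcodes and 180 in the cells used. Only 7.18% of the UMIs in the file belonged to its cells. After thinning each cell to 100 UMIs, 99.5% of cells had a UMI of CD11b, 99% of CD11c and 97.5% of F4/80. In the 25% of cells highest for CD45R (B220), a B cell antigen, those shares were 100%, 99.8% and 98.9%. The median CD45R share was itself 3.77% in cells and 3.82% in the outside barcodes, so these cells are not shown to be B cells. Nearly every cell carried each of the 3 tags, so carrying a UMI could not separate groups of cells. It is not read here as expression, and the part of background in it was not tested.

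**Figure D1:**
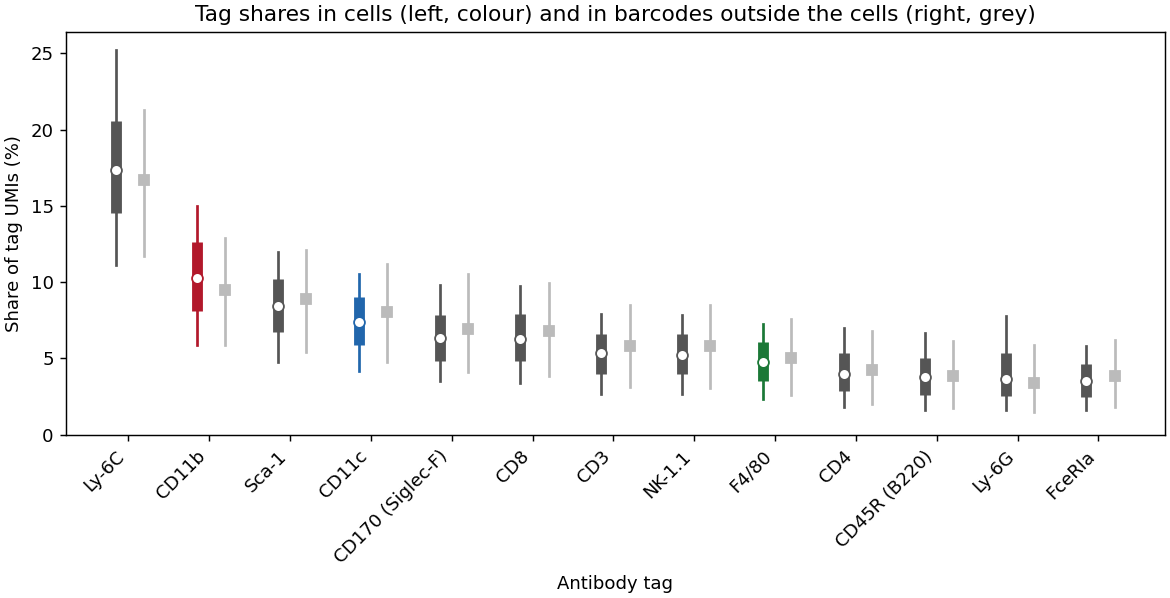
Share of a cell's tag UMIs (%, vertical axis) for 13 of the 14 antibody tags, ordered by median. Coloured or dark bars on the left are the 5359 cells (thick bar 25th to 75th, thin line 10th to 90th percentile, white circle median) and grey squares with lines on the right are the median and 10th to 90th percentile of 74618 barcodes outside the cells. The cell median of CD11b, 10.3%, lies just above its outside median of 9.50%, and those of CD11c and F4/80 lie just below theirs.

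The 3 tags differed in how far cells spread. The standard deviation of the share over cells was 3.76 percentage points for CD11b, 2.72 for CD11c and 3.46 for F4/80. Counting error alone would give 2.27, 1.95 and 1.62 points. The observed spread was thus 1.66, 1.40 and 2.14 times the counting spread. Those ratios ranked 11, 13 and 9 of the 14 tags, against 5.70 for Ly-6G, the neutrophil antigen that ranked 1. The upper tails had another order. No cell had CD11b at 30% or more of its UMIs, and the highest cell reached 27.9%. For CD11c 2 cells passed 30%, up to 62.2%, and for F4/80 14 cells did, up to 78.4%. F4/80 thus had the lowest median and the longest tail of the 3. From the 25th to the 75th percentile its share spanned 2.52 points, against 4.57 for CD11b and 3.17 for CD11c. By that measure, which leaves out the tails, F4/80 spread least in points.

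The overlap between cells highest for one member and cells highest for another was near the 25% found over all cells. Taking the 25% of cells highest for each tag, 324 of 1341 CD11b-high cells were also CD11c-high (24.2%, interval 21.9 to 26.5%). CD11b and F4/80 shared 331 cells (24.7% of CD11b-high cells, interval 22.4 to 27.1%). Both intervals contain 25%, the part of all cells that was high for the second tag. CD11c and F4/80 shared 370 of 1340 cells (27.6% of each list, interval 25.2 to 30.1%), whose lower bound lies just above 25%. High for all 3 were 84 cells, or 1.57%. Without the 717 cells in which 1 tag held 30% or more of the UMIs, the shares were 21.0%, 22.8% and 25.3%, and 1.12% of cells were high for all 3. These 717 cells held 49.9% of all tag UMIs, and a share falls for every other tag where 1 tag is very high.

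Among the other tags, Ly-6G stood closest to CD11b. The Spearman rho of their shares over 5359 cells, given the total tag UMIs, was 0.190, and it was 0.147 without cells with a dominant tag. F4/80 at 0.0864 and NK-1.1, an NK cell antigen, at 0.0694 came next, but both turned negative without those cells (-0.0368 and -0.0723). The lowest values for CD11b were CD170, the eosinophil and macrophage lectin Siglec-F, at -0.0688 and CD4, the helper T cell coreceptor, at -0.0345. For CD11c the closest tags were the T cell antigen CD3 (0.115), the progenitor and lymphocyte antigen Sca-1 (0.114) and NK-1.1 (0.112). Without the dominant-tag cells these were 0.00313, -0.0252 and -0.00735. For F4/80 they were CD11c (0.0971), CD3 (0.0892) and CD11b (0.0864), which became -0.0126, -0.0185 and -0.0368. The lowest were Ly-6C (-0.0239) and CD170 (-0.00942) for CD11c, and Ly-6C (-0.0167) and CD170 (0.0180) for F4/80. All values share 1 total per cell and the same cells, so only the likeness of CD11b and Ly-6G kept its sign and most of its size among the 3 closest tags of each member.

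Between the highest and lowest 25% of cells, the CD11b share differed by 3.07 points for Ly-6G and 3.53 for Ly-6C. It differed by less for the other tags, but this order did not hold at 10%. With the other tag left out of the total, the median CD11b share was 12.5% in the 25% of cells highest for Ly-6G and 9.43% in the 25% lowest. For Ly-6C, carried by monocytes and at lower levels by neutrophils, it was 13.7% against 10.2%. For CD45R it was 10.8% against 9.63%, and for CD4 10.8% against 9.80%. Larger differences were seen for NK-1.1 (11.4% against 9.22%), Sca-1 (11.4% against 9.50%) and CD3 (11.2% against 9.35%). For Ly-6G, the CD11c share was 7.93% against 7.08% and the F4/80 share 5.18% against 4.35%. All of these differences are positive, B and T cell antigens included, and median total UMIs were lower in the high cells of Ly-6C (172 against 212.5), CD45R (168 against 198) and CD4 (163 against 203) but equal for Ly-6G (183 and 183). With the highest and lowest 10% of cells, the CD11b difference was 9.14 points for Ly-6C and 4.95 for Ly-6G. It was 6.87 for NK-1.1, 6.81 for Sca-1, 5.93 for CD3, 3.85 for CD45R and 3.57 for CD4. With both tags in the total, the rho of CD11b and Ly-6C was 0.0251, and -0.0768 without dominant-tag cells. The part of depth in these values was not tested.

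Of the 3 tags, only CD11b was associated with amplicons in the methylation readout at the size used here and in all 5359 cells. For each of the 548 amplicons read in 2 to 98% of the cells with 100 or more tag UMIs in both mature libraries, the rank of the tag share was correlated with the call (1 or more reads), given the cell's reads and total tag UMIs. An amplicon counted as associated at a partial correlation of at least 0.1 in absolute value, a size and not a significance level. CD11b was associated with 98 of 548 amplicons, which is 17.9% against a background of 4.3% over all 14 tags and 3.85% over the 11 others. In 43 (7.85%) the amplicon was read more often in cells with more CD11b, against 2.41% over all tags and 2.36% over the others. In 55 (10%) it was read less often, against 1.89% and 1.49%. CD11c and F4/80 were associated with 0 of 548 amplicons each (0%). No other tag had more than CD11b: CD45R had 67, CD4 51, Ly-6C 40, Ly-6G 36 and Sca-1 27.

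At a lower size of 0.05, chosen after the values were seen, CD11b had 242 amplicons (44.2%), CD11c 2 (0.365%) and F4/80 1 (0.182%), against 14.2% over all tags. The median absolute correlation was 0.0455 for CD11b, 0.0126 for CD11c and 0.0115 for F4/80. CD45R and CD4 had medians of 7 and 8 UMIs, below the 14 of CD11c and the 9 of F4/80, and had 67 and 51 amplicons. CD3 and NK-1.1, with medians of 10 UMIs each, had 0. The part of UMI number in these counts was not tested. Cells with 300 or more tag UMIs numbered 938, and there CD11c had 5 and F4/80 3 amplicons past 0.1, with 105 for CD11b. Sampling error passes a fixed size more easily in fewer cells, and no background over all tags is given for these cells. These counts therefore cannot be set beside those of all cells used.

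**Figure D2:**
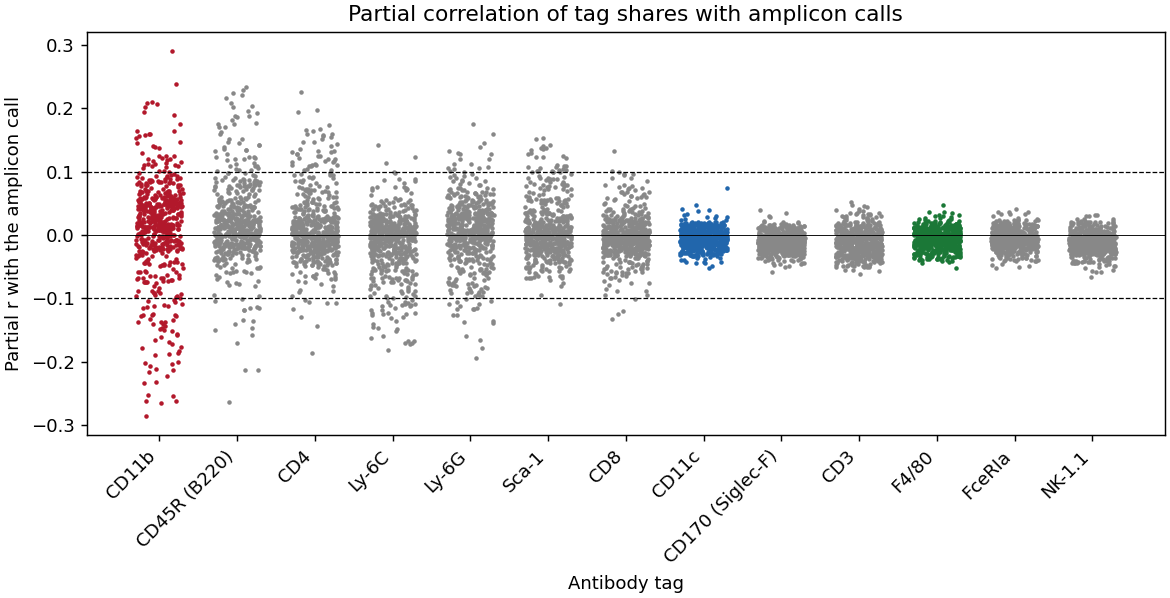
Partial correlation (vertical axis, no unit) of the share of 13 of the 14 tags with the call of each of 548 amplicons, 1 point per amplicon, over 5359 cells of 1 library; sideways scatter within a tag is random. Dashed lines mark 0.1 and -0.1. CD11b spans -0.286 to 0.291, while all points of CD11c and F4/80 lie between the lines.

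For the values below, cells were ordered by the share of a tag and put into 4 bins of equal size. Amplicon AMPL371259 had the highest partial correlation with CD11b, 0.291. From the lowest to the highest CD11b bin it was read in 52.2%, 56.8%, 68.1% and 85.7% of cells. The interval was 49.5 to 54.9% in the lowest bin and 83.7 to 87.5% in the highest, so these intervals do not overlap. AMPL388433 (0.239) went from 67.1% to 90.7% and AMPL388483 (0.210) from 66.3% to 87.1%. In the other direction, AMPL371535 had the lowest correlation, -0.286, and was read in 48.7%, 40.4%, 29.6% and 13.7% of cells. AMPL365828 (-0.265) went from 54.9% to 21.2% and AMPL365901 (-0.262) from 59.4% to 25.5%. All 6 had 1 direction over the 4 bins. These amplicons were picked by these cells, so the sizes are descriptions. Median reads per cell were 24052 in the lowest bin and 23896 in the highest, and median tag UMIs were 206 and 167.5.

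By bins of the other members, the same amplicons differed by a few points. They were picked by CD11b in these cells, and that choice favours a larger difference by CD11b. AMPL371259 was read in 66.1% of cells in the lowest bin by CD11c and in 63.4% in the highest, and in 65.1% and 65.4% by F4/80. AMPL371535 was read in 34.6% and 32.9% by CD11c, and in 36.1% and 32.6% by F4/80.

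**Figure D3:**
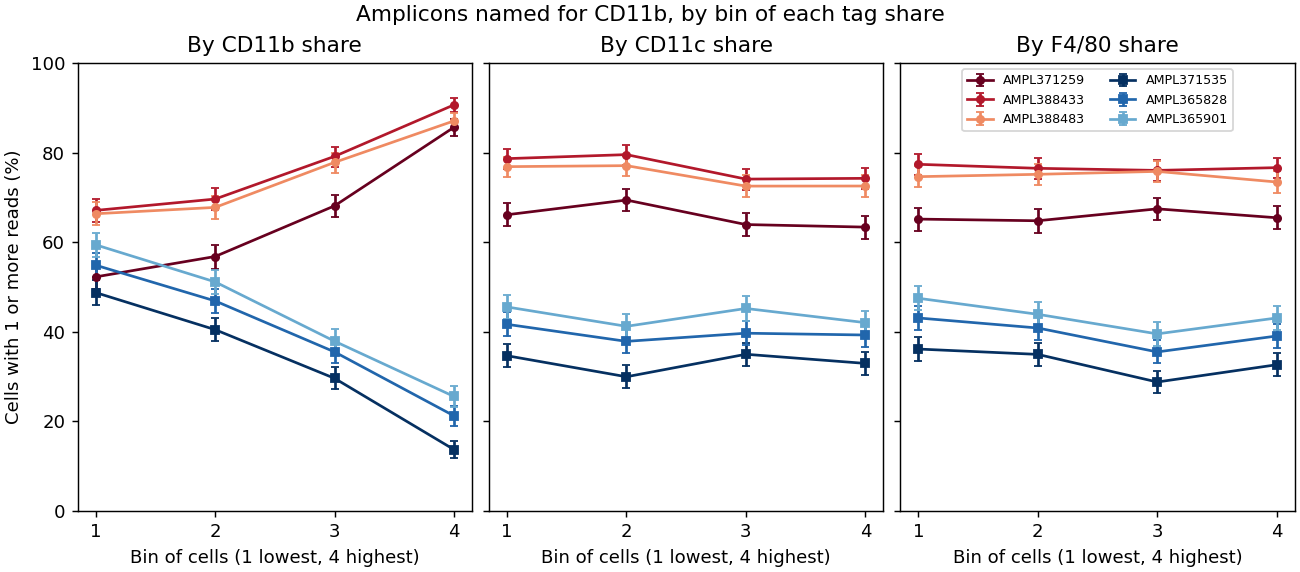
Percentage of cells with 1 or more reads (vertical axis) of the 6 amplicons named for CD11b, over 4 equal bins of the 5359 cells (1 lowest, 4 highest) ordered by the share of CD11b (left), CD11c (middle) or F4/80 (right). Circles in red tones are the 3 amplicons with positive and squares in blue tones the 3 with negative correlation; bars are exact 95% binomial intervals. The lines part from bin 1 to 4 only in the left panel, where the amplicons were chosen; AMPL371535 goes there from 48.7% to 13.7%.

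The largest values of CD11c and F4/80 were small. AMPL371584, at a partial correlation of 0.0734 with CD11c, was read in 78.7% of cells in the lowest CD11c bin, then 83.4%, 82.5% and 86.7%. It had 0.0674 with CD11b, and at a call of 5 reads its value with CD11c was 0.0102. AMPL371800 followed with 0.0479 and AMPL366827 with 0.0404. On the negative side of CD11c stood AMPL366126 (-0.0522) and AMPL371429 (-0.0484). F4/80 had AMPL388838 (0.0470), AMPL371230 (0.0366) and AMPL388452 (0.0364) as its highest, and AMPL388308 (-0.0523), AMPL366126 (-0.0445) and AMPL366093 (-0.0423) as its lowest.

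AMPL366126 was named for both CD11c and F4/80. By bins of F4/80 it was read in 49.7%, 44.9%, 44.5% and 42.0% of cells, and by CD11c in 47.8%, 49.5%, 42.9% and 40.9%. With CD11b its value had the other sign, 0.0662. AMPL366093, low for F4/80, was also low for CD11b, at -0.234. The widest gaps between CD11c and F4/80 were at AMPL388404 (0.0281 and -0.0298) and AMPL366093 (0.0152 and -0.0423).

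By number, most CD11b amplicons lay at intermediate methylation, read in 25 to 75% of cells. The part associated was 30.4% there, 23.2% at 2 to 25% and 5.56% at 75 to 98%. A correlation with a call made in few or in nearly all cells is more limited in size. A fixed size therefore favours the middle range, and these parts cannot show where association was strongest. Of 214 amplicons read in 25 to 75% of cells, 26 were positive and 39 negative with CD11b. Of 82 amplicons read in 2 to 25%, 3 were positive and 16 negative, and of 252 read in 75 to 98%, 14 were positive and 0 negative. A median amplicon of the positive list was read in 69.5% of cells, of the negative list in 36.6% and of all 548 in 71.8%. Over all amplicons the mean share read was 64.6% of cells in the lowest CD11b bin and 63.9% in the highest, while the median over amplicons was 71.3% and 75.6%.

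Over the 548 amplicons, the CD11b profile ran with those of Ly-6G, Ly-6C and, more weakly, F4/80, and against those of all other tags. The correlation across amplicons of the partial values was 0.916 with Ly-6G and 0.837 with Ly-6C. It was -0.856 with Sca-1, -0.822 with CD4, -0.745 with CD8, -0.724 with CD45R and -0.563 with CD3. The values were -0.262 with CD170, -0.206 with NK-1.1 and -0.200 with the tag FCERIA, so not only lymphocyte antigens were negative. With F4/80 it was 0.331 and with CD11c -0.353. All of these rest on the same cells and the same totals. Of the 36 amplicons of Ly-6G, 35 were also in the CD11b list with the same sign, which is 97.2% of that list and 35.7% of the CD11b list. Of the 40 of Ly-6C, 36 were (90% and 36.7%). CD45R shared 45 (67.2% of its list and 45.9% of the CD11b list) and CD4 42 (82.4% and 42.9%), all with the opposite sign. For 23 of the 98 no other tag reached 0.1.

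The sign of F4/80 was that of CD11b more often at the negative than at the positive amplicons. Its sign was that of CD11b at 50 of the 55 negative and 26 of the 43 positive amplicons, and at 314 of all 548. The part of the positive amplicons is near that of all 548. The F4/80 values behind these signs were small, with a median absolute correlation of 0.0115. CD11c had the CD11b sign at 18 of 55, 5 of 43 and 186 of 548.

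**Figure D4:**
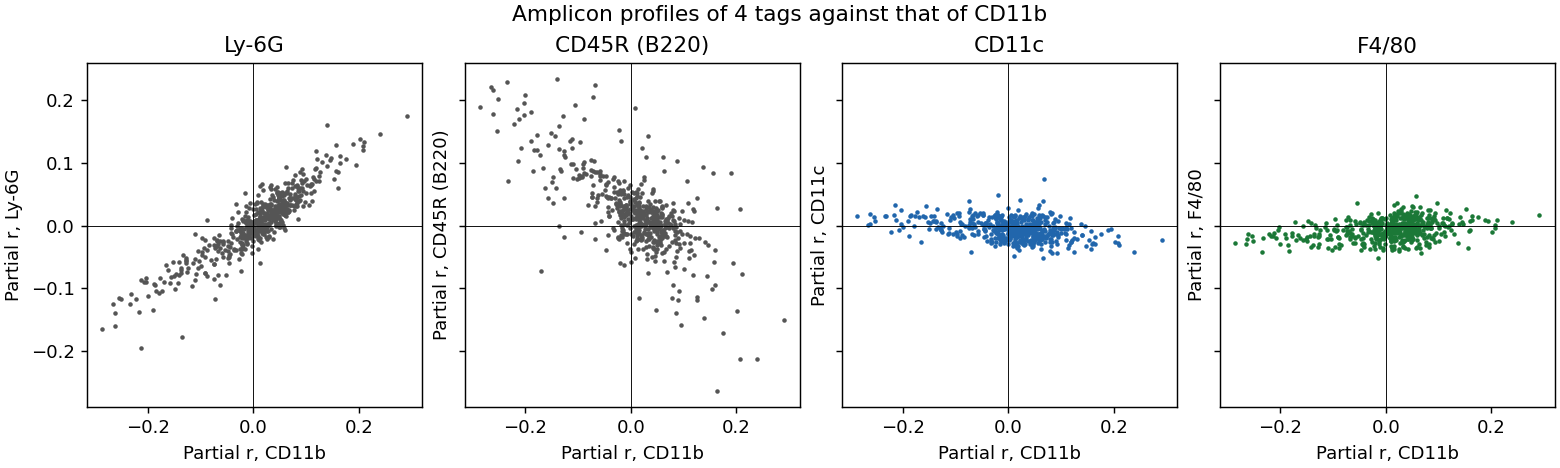
Partial correlation of 4 tags with each of 548 amplicons (vertical axes, no unit) against that of CD11b (horizontal axes), on common scales. Ly-6G rises with CD11b (correlation across amplicons 0.916), CD45R falls (-0.724), and CD11c and F4/80 stay near 0 over the whole CD11b range.

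The CD11b count was also taken with other tags held fixed or other cells removed. With Ly-6G and Ly-6C as further covariates, CD11b had 79 amplicons, and with all 11 other tags 81. Removing every cell among the 25% highest for CD45R, CD3, CD4 or CD8 left 1729 cells, in which 80 amplicons were associated. There the balance of directions turned, with 55 positive and 25 negative against 43 and 55 in all cells. AMPL371259 had 0.219 and AMPL371535 -0.217 in those cells. In the 938 cells with 300 or more UMIs the balance was 69 positive and 36 negative. Sampling error passes 0.1 more easily in 1729 or 938 cells, so their counts are not directly comparable with those in all cells. Without covariates the balance was 28 and 62, and with no minimum of tag UMIs 27 and 53.

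The CD11b amplicons were then followed in cells that had not entered the correlations with CD11b. Cells of the myeloid library had helped to select the 548 amplicons by how often they were read, so that library was not wholly unused. The myeloid library of marrow and blood was set against 6 LARRY bone marrow libraries, 4 mice of the main and 2 of the replicate experiment, as the percentage of cells read; this comparison was chosen after the data were seen. Of the 55 negative CD11b amplicons, 46 (83.6%) were read less often in the myeloid library than in every one of the 6, against 46.9% of all 548. Their median difference was -10.9 percentage points, against -4.50 over all. Of the negative ones, 2 (3.64%) were above every one of the 6, against 11.1% of all. The 43 positive ones split, with 9 (20.9%) above every one of the 6 and 10 (23.3%) below. Over all amplicons these shares were 11.1% and 46.9%. The median difference of the positive ones was 0.729 points.

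Median reads per cell were 24569 in the myeloid library and 45004 to 89971 in the 6 others. Thinned to 10000 reads a cell, 41 of the 55 (74.5%) lay below all 6, against a background of 28.8%. Of the 43, 21 (48.8%) then lay above all 6, against 22.8%. In the other direction, 7 of the 55 (12.7%) lay above and 5 of the 43 (11.6%) below all 6. The median differences were -7.38 and 4.41 points, with -0.815 over all amplicons. Across amplicons, the difference and the CD11b value had a Pearson correlation of 0.296 as read and 0.340 when thinned. With the CD11c profile it was -0.224 and -0.208, and with that of F4/80 -0.0320 and 0.0328.

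Single amplicons show both sides. AMPL371535 was read in 9.51% of myeloid cells, in 32.6% of all cells of the marrow and spleen library and in 24.1% ± 5.16 (SD, n = 6) of the bone marrow libraries, which ran from 20.1 to 31.4%. AMPL365828 was read in 13.5%, 39.4% and 31.8% ± 8.12 (SD, n = 6), and AMPL365901 in 12.6%, 43.0% and 22.7% ± 3.66 (SD, n = 6). For these 3 negative amplicons the myeloid library lay below all 6. Among the positive ones, AMPL388483 at 80.7% lay above all 6 (63.7% ± 2.45, SD, n = 6). AMPL371259 at 77.7% and AMPL388433 at 82.4% fell inside the range of the 6, which was 70.6 to 83.2% and 70.2 to 84.2%.

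**Figure D5:**
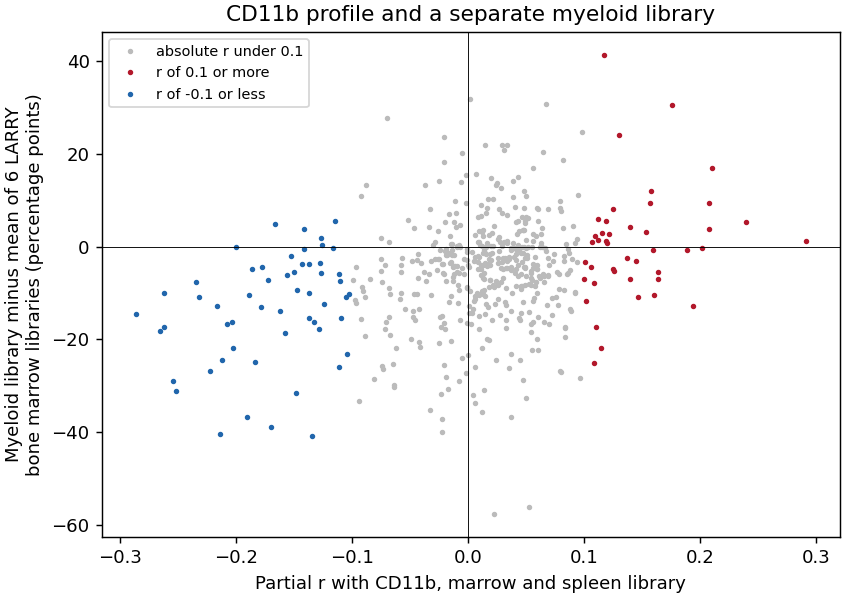
Difference in the percentage of cells read between the myeloid library of marrow and blood and the mean of 6 LARRY bone marrow libraries (vertical axis, percentage points, all reads) against the partial correlation with CD11b in the marrow and spleen library (horizontal axis), 1 point per amplicon. Blue points, the 55 negative CD11b amplicons, lie mostly below 0 (median -10.9 points), and red points, the 43 positive ones, scatter around 0 (median 0.729 points).

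In the library of lung myeloid cells, compared at all reads only, the share of negative amplicons below all 6 was near the background. For the positive amplicons, the share above all 6 was close to that in marrow and blood at all reads. Their share below all 6 was not, at 9.30% against 23.3% in marrow and blood. Here 16 of the 55 negative amplicons (29.1%) lay below all 6 bone marrow libraries, against 31.2% of all amplicons, and 8 of the 43 positive ones (18.6%) lay above, against 11.9%. In the other direction, 6 of the 55 (10.9%) lay above and 4 of the 43 (9.30%) below all 6. The median differences were -0.648 points for the negative and 1.47 for the positive amplicons. The correlation of the difference with the CD11b value was 0.0295. CD11b, CD11c and F4/80 could not be read on lung cells. The tag table given for the lung myeloid library is the same as that of the lung endothelial library, and held barcodes of 99.6% of the endothelial and 23.9% of the lung myeloid cells. The endothelial cells had 1, 2 and 2 UMIs of the 3 tags in all, out of 1472074.

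Tags for Sca-1 and CD115 in the myeloid library of marrow and blood were set beside CD11b. Its Sca-1 tag, with a median of 3 UMIs, was associated with 34 of the 548 amplicons over 3902 cells. Across the 548 amplicons that profile had a correlation of -0.803 with the CD11b profile of the marrow and spleen library, and 0.755 with the Sca-1 profile there. With CD11c it was 0.363 and with F4/80 -0.260. Its tag for CD115, the macrophage growth factor receptor, had 0 amplicons past 0.1 and a correlation of -0.306 with CD11b. No background over the other tags of that library is given, so neither count can be called high or low. Both libraries share the panel, and 10 of the cells used carry a barcode found in both.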

How the data were processed

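The assay was scTAM-seq on a Tapestri instrument, per the labels' protocols. The authors deposited, per library, read counts per cell and amplicon and UMI counts per cell and antibody tag, neither normalized. Per the submitters' processing notes, mm10 served as the genome build; for the aligner and cell caller, nothing is stated in the sources used here. Cells are the barcodes of the amplicon table, with no further filter and no doublet caller. The marrow and spleen library held 214181515 reads over 7385 cells, a median of 23575 a cell, and a median of 147 tag UMIs before the minimum of 100. Its file lists 17 tags; 14 with 1000 or more UMIs in the cells used were kept, and the others, CD115 among them, had 3 UMIs together. It holds 0 isotype controls.

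Shares were taken over all tag UMIs of a cell. Partial correlations are Pearson correlations of residuals (rank of the share; call at 1 read) on log10 reads and log10 tag UMIs, computed in Python 3.11.15 with numpy 2.4.6, pandas 2.3.3 and scipy 1.17.1 and tested on simulated data. Bins of cells were cut on the share itself. Named amplicons are the 3 highest and 3 lowest by partial correlation per tag, those named for more than 1 tag, and the widest gaps between tags; named tags are the 3 closest and 2 farthest. Values of 1 further tag and 1 further amplicon are not reported here. The rule asked for both libraries and was applied in 1, and agreement between libraries was not computed, because the myeloid tag file holds none of the 3 tags. Members and lists were chosen with earlier results of these data known. The comparison with other libraries, the size of 0.05, and 5 alternatives (no dominant-tag cells, other tags as covariates in 2 forms, thinning of reads, no cells high for CD45R, CD3, CD4 or CD8) were chosen after seeing the data. Thinning left out at most 1.58% of the cells of any library compared.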

Additional observations from a re-analysis of the deposited data

How the results depend on the processing

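The number of CD11b amplicons past 0.1, 98 at first, stayed between 76 (each cell thinned to 100 tag UMIs) and 114 (centred log ratio) over 13 alternatives. The directions were less stable, as given with the results; the constitutive detection covariate gave 28 positive and 62 negative. CD11c and F4/80 had 0 in 12 of the 13, and with 300 tag UMIs they had 5 and 3. Counts with 300 tag UMIs, or without cells high for CD45R, CD3, CD4 or CD8, rest on fewer cells. Sampling error passes 0.1 more easily there, so these counts are not directly comparable with the first ones. The median shares of the 3 tags all moved by less than 1 SD, to 7.91%, 5.60% and 3.70% with 300 tag UMIs. With the top 10% of cells in place of the top 25%, CD11b and CD11c shared 7.89% of high cells, CD11b and F4/80 9.91%, CD11c and F4/80 11.8%, and 0.0560% were high for all 3; without dominant-tag cells CD11b and CD11c shared 21.0% and 1.12% were high for all 3. None of the 6 named CD11b amplicons changed sign, but 41 of their 78 values moved beyond the margin that 5359 cells give a correlation; AMPL365901, at -0.262, had -0.145 with 300 tag UMIs and -0.164 without cells high for CD45R, CD3, CD4 or CD8. Values of CD11c and F4/80 amplicons, all small, moved by over 1.5 times in several settings, such as AMPL366126 with CD11c to -0.00369 at 300 tag UMIs and AMPL388308 with F4/80 to -0.00289 without those lymphoid-high cells. AMPL366827 turned to -0.000822 with CD11c at a call of 5 reads; the cause was not tested. The share over tags common to both libraries was not run, since the 3 tags are in 1 library. The planned removal of cells high for a lymphoid tag was not run; a version with 4 of the tags, added after seeing the data, stands in its place. No paired analysis was possible because the tag values come from 1 library, and both mature libraries carry no replicate number to pair with the 6 bone marrow libraries. Medians of 19, 14 and 9 UMIs a cell limit the precision of single shares of CD11b, CD11c and F4/80.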
